A study of Danio rerio with 19 samples.

Results

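The comparison is of day against night H3K9me3 in the brain of 4-month-old (4 M) wild-type zebrafish of the SAT strain. It uses every peak of the 2 lists made at that age, 70317 peaks at ZT4 and 55874 at ZT16, which are 126191 of the 242100 peaks in the 6 lists of the series. ZT4 and ZT16 are 4 h and 16 h after lights on, in fish kept for a week under 12 h of light and 12 h of dark, so ZT4 is in the day and ZT16 in the night. The labels set the groups apart only by the time of tissue removal. Each list was made by the authors from 3 libraries of chromatin pulled down with an antibody against H3K9me3, pooled into 1 set of peaks. The series also has 1 library from a GFP antibody, and older fish of 12 and 20 months (12 M, 20 M) were sampled at the same times. The whole brain was used, so neurons, glia, vessels and ependyma were mixed, and a difference in the make-up of the tissue and one in the mark within a cell cannot be told apart. The lists give neither the values of each library nor its depth. Every difference below is therefore between 2 pooled lists, with no replicate error and no test.

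H3K9me3 is histone H3 trimethylated on lysine 9. It is laid down by methyltransferases of the SUV39 and SETDB1 families, is bound by HP1, and marks compacted chromatin at satellites, transposons and repeated gene clusters. The long arm of zebrafish chromosome 4 is a known heterochromatic region, late replicating and rich in repeats and small RNA genes. In the circadian clock, CLOCK and BMAL1 switch on the period and cryptochrome genes, whose products shut them off again, and in mammals the PER complex can carry an H3K9 methyltransferase. The question is how far the sites of the mark and their order of strength differ between day and night at the youngest age.

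Day and night held largely the same sites. Peaks of the 2 lists with 1 bp or more in common were taken as shared. By that count 55344 of the ZT4 peaks and 55412 of the ZT16 peaks were shared. The other 14973 ZT4 peaks, 21.3% of that list (Wilson 95% interval 21.0 to 21.6, which covers counting error only), had no partner at ZT16. In the night list 462 peaks, or 0.827% (0.755 to 0.905), had no partner at ZT4. Both counts depend on the lists' lengths and on the overlap asked for. With 50% reciprocal overlap 1539 night peaks had no partner. With the ZT4 list alone cut to its strongest peaks, as many as the whole ZT16 list holds, 4388 ZT4 and 4351 ZT16 peaks had no partner. How much of the gap in number came from depth or pull-down was not tested, since the lists record neither.

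The shared peaks paired off cleanly. At 55145 sites exactly 1 ZT4 peak met exactly 1 ZT16 peak, which took in 78.4% of the ZT4 list and 98.7% of the ZT16 list. Only 150 overlap groups had another make-up. In 94 of them 1 ZT4 peak met 2 ZT16 peaks, and in 43 of them 2 ZT4 peaks met 1 ZT16 peak. The rest held up to 4 peaks of one list.

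Sites were short, and nearly all were a little longer by day. The median length of the 1-to-1 sites was 77 bp at ZT4 and 70.0 bp at ZT16. The shortest peak was 46 bp in the ZT4 list and 48 bp in the ZT16 list, a floor that differed between them. The ZT4 peak was the longer one at 51054 sites (92.6%), the ZT16 peak at 2508 sites (4.55%), and at 1583 sites the lengths were equal. The median difference was 6 bp, with quartiles of 4 and 10 bp. At 45572 sites (82.6%) the ZT16 peak lay wholly inside the ZT4 peak. The difference was thus one of a few base pairs at each edge and held across the list. Lengths kept their order (Spearman's rho 0.94 across sites, a description with no p). How much of the difference in length came from depth or pull-down was not tested, since the lists record neither.

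The strength of a site was compared by its rank. Each peak carries a score written by the authors' peak caller, whose scale the lists do not name and which moves with depth, so a score was turned into its percentile within its own list, with the middle rank for ties. Across the 1-to-1 sites the scores of day and night had a Spearman's rho of 0.85 and a Pearson's r of 0.89, given as a description over sites that share libraries and background. The percentile at ZT4 minus that at ZT16 had a median of 7.30 points, and 40930 sites (74.2%) ranked higher by day. The median absolute difference was 10.4 points, and 26832 sites (48.7%) stood within 10 points in both lists.

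Large shifts in rank were fewer. At 7899 sites (14.3% of all 1-to-1 sites) the ZT4 peak ranked at least 25 points above the ZT16 peak, and at 709 sites (1.29%) the ZT16 peak ranked at least 25 points above the ZT4 peak. This lean toward day goes with the percentile used, because the ZT4 list holds 14973 further peaks that sit mostly at its low end and lift the percentile of every site above them. With percentiles taken among the 1-to-1 sites alone, the median difference was 0.0553 points, and 3243 sites (5.88%) ranked at least 25 points higher at ZT4 against 3142 (5.70%) at ZT16. With the ZT4 list cut to the size of the ZT16 list the numbers were 3133 and 3349. Ranking the same sites in both lists centres the differences near 0 by construction, so this balance is no result about day and night. The 2-dimensional map of percentiles shows the wide middle and the narrow top of the distribution.

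**Figure D1:**
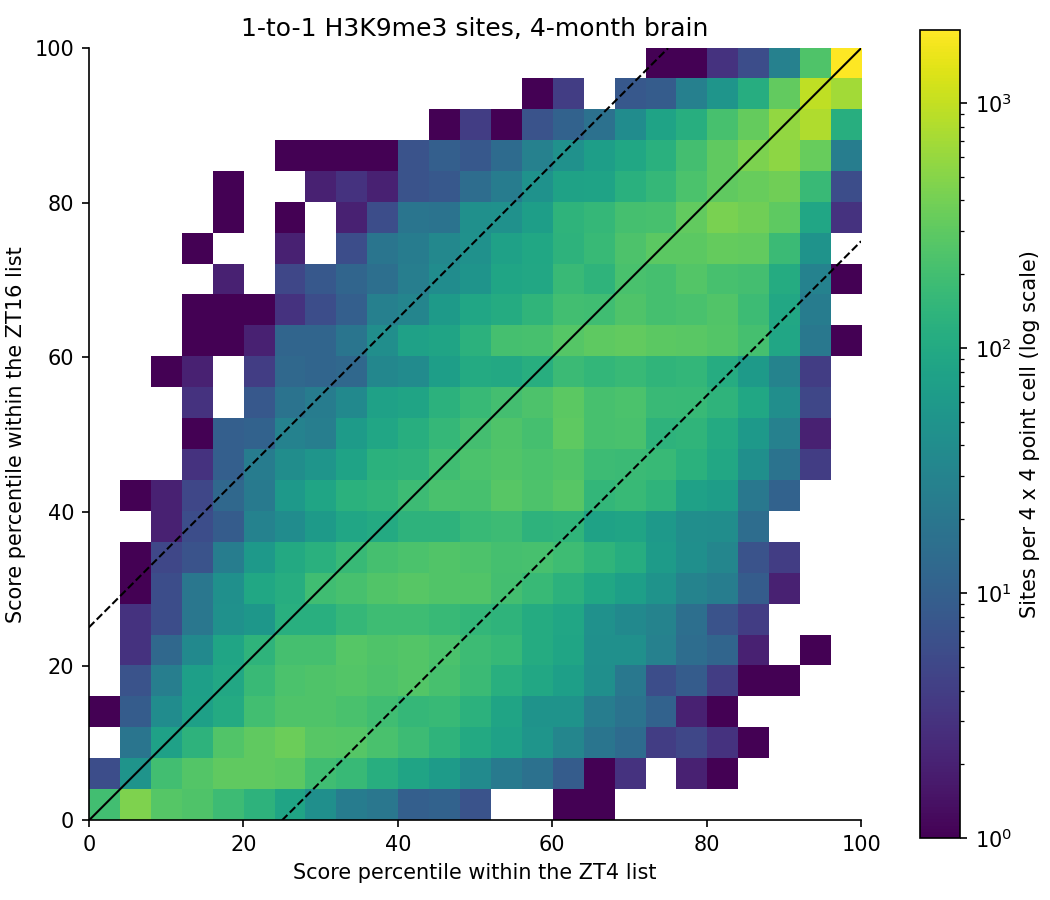
Score percentile of each of the 55145 1-to-1 sites in the ZT4 list (x axis) and in the ZT16 list (y axis), as the number of sites per cell of 4 by 4 percentile points on a log colour scale. The solid line marks equal percentiles and the dashed lines 25 points to either side; 7899 sites lie beyond the lower dashed line and 709 beyond the upper one, and the cells narrow toward the top right corner.

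The sites furthest off the diagonal were single peaks, of 55 to 383 bp at ZT4. The site with the greatest rank by day over night lay on chromosome 14 from 4739354 to 4739427 (GRCz10, as all positions here). Its score of 157 stood at percentile 81.01 of the ZT4 list, and its score of 43 at percentile 7.52 of the ZT16 list, a difference of 73.50 points. The next 4 lay on chromosome 7 from 20092844 to 20092919, chromosome 18 from 4687510 to 4687727, chromosome 4 from 4521054 to 4521131 and chromosome 17 from 34715386 to 34715455, with differences of 72.77, 72.15, 71.86 and 71.53 points. In 4 of these 5 the ZT4 peak was 70 to 78 bp long, and the chromosome 18 site was 218 bp. All 5 were under percentile 25 of the night list and above percentile 80 of the day list.

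In the other direction the greatest difference was on chromosome 7 from 3550728 to 3550852, with a score of 71 at percentile 18.79 of the ZT4 list and a score of 104 at percentile 82.73 of the ZT16 list, a difference of -63.94 points. It was followed by sites on chromosome 5 from 9082342 to 9082396 (-61.35 points), chromosome 8 from 4410633 to 4410829 (-58.63), chromosome 7 from 24952367 to 24952749 (-57.80) and chromosome 17 from 4244802 to 4245026 (-55.54). In the latter 2 the ZT4 peak was 383 and 225 bp long, while the ZT16 peak covered 77 and 75 bp near one end of it. These are sites where a narrow night peak of high rank lay within a broad and lower-ranked day peak. Gene annotation of this build was not used here, so the features at these sites are not given.

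Long sites kept their rank more closely than short sites. The percentiles given first are those of the whole lists, which lean toward day. Among sites whose ZT4 peak was at most 75 bp, 26310 in all, the median absolute difference was 13.2 points, and 18.1% ranked at least 25 points higher at ZT4 and 1.79% at ZT16. Between 75 and 100 bp the median was 10.8 points, and between 100 and 150 bp 5.96 points. Above 300 and up to 500 bp it was 2.77 points over 2184 sites. Above 500 bp it was 1.06 points over 1429 sites, of which 8 ranked at least 25 points higher at ZT4 and 1 at ZT16. The longest sites also stood near the top of both lists, with median percentiles of 97.8 at ZT4 and 97.0 at ZT16, where less room for a shift is left. Sites of 200 to 300 bp stood lower, at median percentiles of 60.2 and 53.2, and their median absolute difference was 7.06 points, against 13.2 points in the shortest class at 48.1 and 35.7. With percentiles among the sites the median absolute difference was 10.8 points up to 75 bp, 4.69 between 200 and 300 bp and 0.842 above 500 bp.

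Shifts in rank did not run together along the chromosome. Neighbouring 1-to-1 sites at most 500 bp apart made 2180 pairs, whose rank differences (percentiles among the sites) had a Spearman's rho of 0.003. At gaps of 500 to 1000 bp rho was 0.034 over 1987 pairs, and at 1 to 5 kb 0.007 over 9175 pairs. The ZT4 scores of the same neighbours, in contrast, had a rho of 0.208 at gaps up to 500 bp and of 0.111 at 1 to 5 kb. Neighbours were alike in strength, but not in how their rank differed between day and night. These are descriptions over pairs that share sites, with no p.

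Nor did whole chromosomes or windows lean one way. The median rank difference among the sites ran from -0.40 points on chromosome 19 to 0.83 points on chromosome 14 over the 24 chromosomes other than 4, and was -0.02 on chromosome 4. In 1-Mb windows with at least 20 sites, 1306 in all, the median lay within 5 points of 0 in 1237 (94.7%). The lowest was -9.85 points on chromosome 12 between 13 and 14 Mb over 26 sites, followed by -9.11 on chromosome 3 between 44 and 45 Mb over 38 sites. The highest was 10.93 points on chromosome 14 between 34 and 35 Mb over 29 sites.

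Peaks listed by day only were weak. Their median score was 61.0, at percentile 12.9 of the ZT4 list, against 126 and percentile 60.9 for shared ZT4 peaks. Of the ZT4 peaks under percentile 10, 84.5% were ZT4-only. The share was 63.8% between percentiles 10 and 20, 37.2% between 20 and 30, 17.8% between 30 and 40, 6.88% between 40 and 50 and 2.46% between 50 and 60. Above the middle of the list 200 of 14973 ZT4-only peaks remained (1.34%), with 4 between percentiles 70 and 80, none between 80 and 90 and 2 above 90. Whether a day peak had a night partner thus followed its rank closely.

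A pair of ZT4-only peaks broke from that order. The one on chromosome 15 from 3220662 to 3220737 had a score of 231, at percentile 96.86, and the one on chromosome 4 from 38504722 to 38504800 a score of 182, at percentile 90.19. They were 76 and 79 bp long, the nearest ZT16 peaks lay 5002 and 4658 bp away, and neither was in any list of older fish. The next 3 by score lay on chromosome 15 from 9444464 to 9444525, on chromosome 16 from 18895062 to 18895121 and on chromosome 6 from 58815158 to 58815215, with scores of 144, 141 and 141. Each of these 3 was listed again in 20 M fish at ZT16.

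Over the whole list ZT4-only peaks were also short, with a median of 52.0 bp and quartiles of 48.0 and 61.0 bp. No peak of the ZT4 list was under 46 bp, so these lengths lie close to the floor of the list. Shared ZT4 peaks had a median of 77.0 bp (65.0 to 98.0). The difference held within bands of equal rank. Between percentiles 10 and 20 the medians were 49.0 bp for ZT4-only and 66.0 bp for shared peaks, and between 30 and 40 they were 55.0 and 63.0 bp. Under percentile 10 both were longer, at 70.0 and 123 bp. The 5 longest ZT4-only peaks were all on the long arm of chromosome 4. They ran from 53616684 to 53619438 (2755 bp, score 34), from 38871893 to 38874467 (2575 bp, score 19), from 59101374 to 59103524 (2151 bp, score 40), from 38501711 to 38503678 (1968 bp, score 33) and from 52106450 to 52108252 (1803 bp, score 23). All 5 were broad and low, at percentiles of 3.11 to 5.93.

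ZT4-only peaks lay somewhat further out from the shared sites than those lay from each other. Their median distance to the nearest shared peak was 8553 bp (quartiles 2687 and 18972), and 54.5% (53.7 to 55.3) had one within 10 kb. The median from a shared ZT4 peak to its next shared neighbour was 6673 bp, and 61.7% (61.3 to 62.1) had one within 10 kb. Within 1 kb the shares were 11.6% and 14.8%. Of the ZT4-only peaks 8154 (54.5%) stood alone, with a shared peak or the end of the sequence as the next peak on each side. The nearest lay 185 bp from a shared peak, which was also the least distance between shared ZT4 peaks, so this gap is not particular to ZT4-only peaks.

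Chromosome 4 stood apart. On the 24 other chromosomes ZT4-only peaks made up 18.0% to 21.4% of the ZT4 peaks, and on unplaced scaffolds 21.8%. On chromosome 4 they made up 46.6% (2142 of 4592 peaks, 45.2 to 48.1). The excess lay in the part beyond 25 Mb, which holds the long arm. There 1955 of 3577 peaks (54.7%, 53 to 56.3) were ZT4-only, against 187 of 1015 (18.4%, 16.2 to 20.9) before 25 Mb and 19.5% (19.2 to 19.8) over the whole genome outside the arm. The arm held 13.1% of all ZT4-only peaks and 2.93% of shared ZT4 peaks. Its part of the ZT4-only peaks fell to 6.11% at scores of at least 30 and to 3.69% with lists of equal size.

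**Figure D2:**
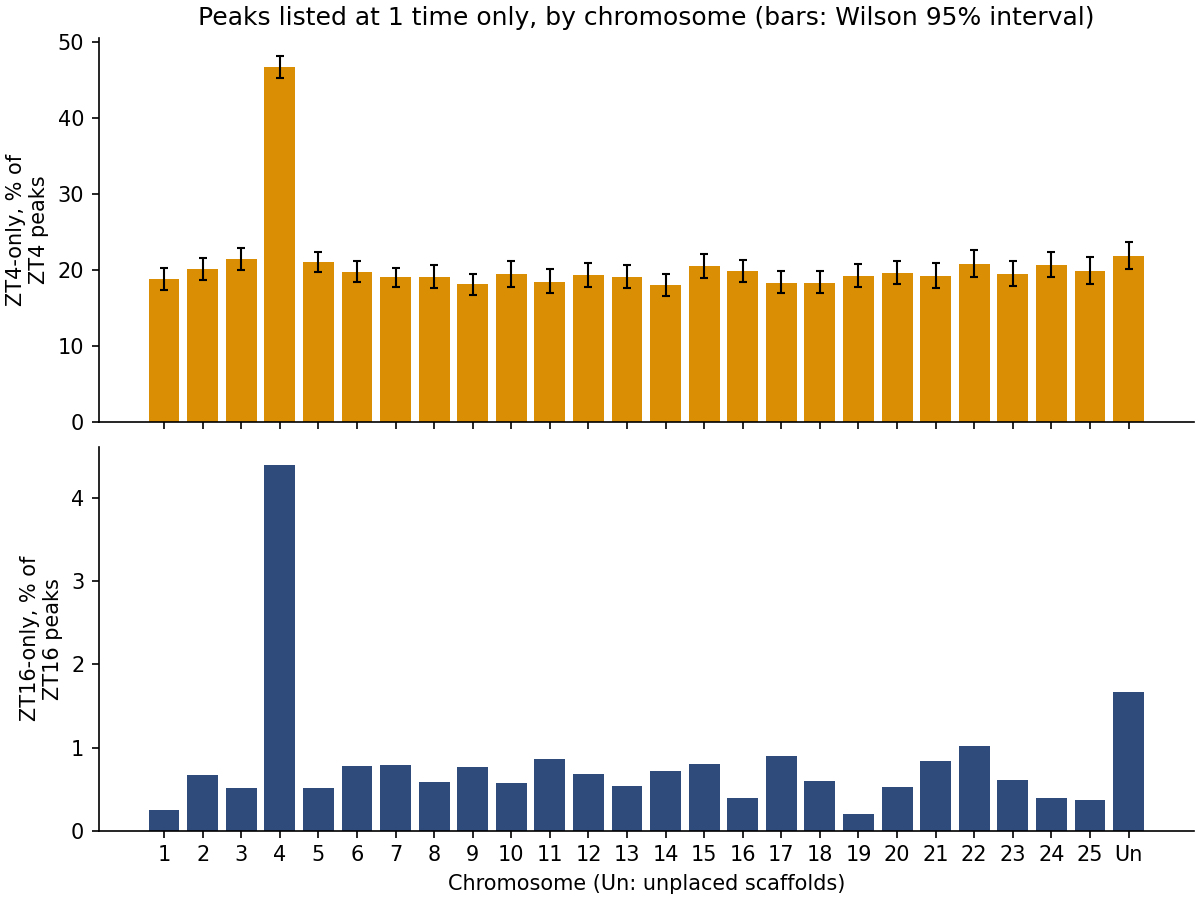
Peaks without a partner in the other list as a percentage of the peaks of each chromosome, for ZT4 (upper panel, bars with Wilson 95% intervals) and ZT16 (lower panel, no interval drawn, on its own scale). Chromosome 4 stands at 46.6% at ZT4 and 4.40% at ZT16, while the other 24 chromosomes lie between 18.0% and 21.4% and between 0.201% and 1.02%.

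The same arm held the windows with most ZT4-only peaks. In 1-Mb windows the largest number was between 61 and 62 Mb, where 92 of 187 ZT4 peaks (49.2%) had no partner. It was followed by 51 to 52 Mb (81 of 142), 53 to 54 Mb (72 of 107), 52 to 53 Mb (65 of 91) and 36 to 37 Mb (62 of 94). The 20 windows with most ZT4-only peaks were all on the arm. Over its 52 windows the ZT4-only share had a median of 56.6% and ran from 9.09% to 76.9%. Over the 1289 other windows with at least 10 ZT4 peaks the median was 19.0%, with quartiles of 15.0% and 23.7%, and 13 of them exceeded 40%, against 41 of the arm's 52. Off the arm the largest number was on chromosome 5 between 52 and 53 Mb, where 35 of 74 ZT4 peaks were ZT4-only and 5 of 44 night peaks were ZT16-only.

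**Figure D3:**
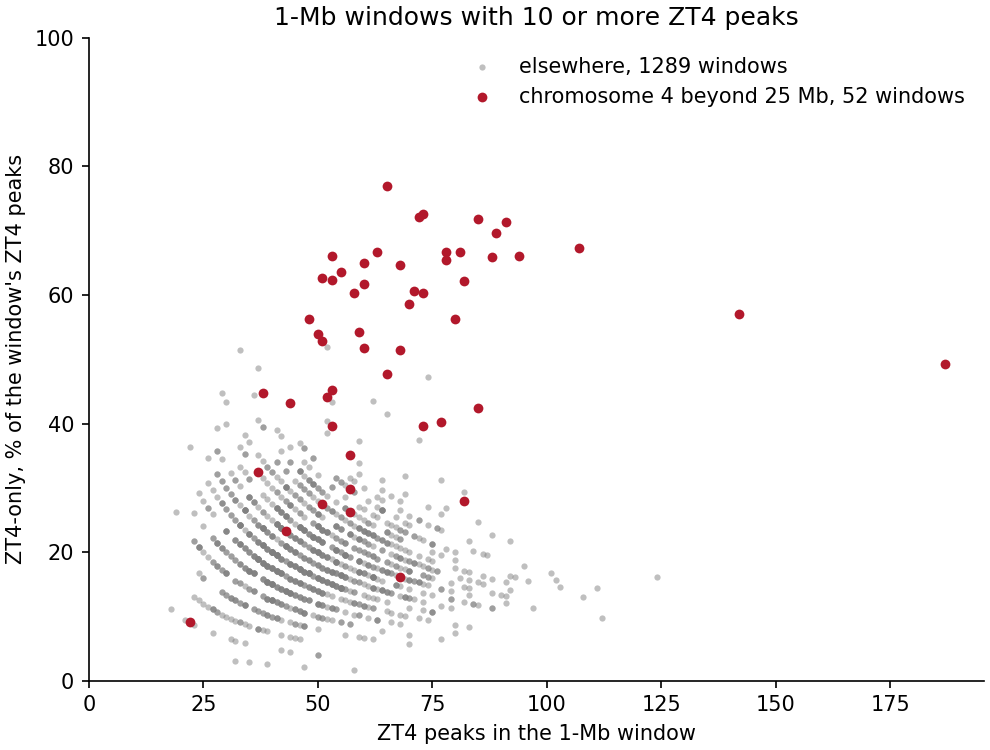
Each point is a 1-Mb window with at least 10 ZT4 peaks, placed by its number of ZT4 peaks (x axis) and the percentage of them that are ZT4-only (y axis); red points are the 52 windows of chromosome 4 beyond 25 Mb and grey points the 1289 others. Of the red points 41 lie above 40%, against 13 of the grey ones.

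On the arm the unshared peaks came in long stretches. The longest run of neighbouring ZT4 peaks with no partner held 37 peaks, from 36756745 to 36842338, with scores of 12 to 71. Others held 34 peaks from 53597878 to 53732574, 30 from 62196512 to 62279147, 25 from 43521745 to 43650271 and 25 from 65265051 to 65298307. Runs of 5 or more numbered 196, of which 117 were on the arm, and the longest run elsewhere held 22 peaks. Single peaks were 14.9% of the arm's ZT4-only peaks and 60.4% of those elsewhere. Where more peaks are ZT4-only, runs are longer and single peaks fewer even without clustering. The contrast thus follows in part from the ZT4-only shares of 54.7% and 19.5%, and clustering beyond them was not tested.

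The peaks of the arm ranked low in the day list, and within classes of rank its ZT4-only share stood closer to that of the rest of the genome. Of the arm's ZT4 peaks 51.9% (1858 of 3577) lay under percentile 10 of the list, against 7.86% elsewhere. Under percentile 10 the ZT4-only share was 85.5% (83.8 to 87.0) on the arm and 84.1% (83.1 to 85.1) elsewhere. Within that class the arm's peaks had lower scores, and in finer classes, set after these values were seen, the share was 92.9% on the arm and 94.8% elsewhere at scores of 10 to 19, 79.6% and 86.2% at 20 to 29, and 78.5% and 79.0% at 30 to 55. Above it a smaller gap remained, 21.3% (19.4 to 23.3) on the arm against 14.0% (13.7 to 14.3) elsewhere. The arm was the higher one between percentiles 10 and 20 (70.7% against 63.5%), 20 and 30 (42.9% against 37.0%), 30 and 40 (21.5% against 17.7%) and 40 and 50 (10.2% against 6.76%). With the ZT4 list cut to the size of the ZT16 list, which keeps ZT4 scores from 74 up, the share was 11.3% (9.79 to 13.1) on the arm and 7.76% (7.54 to 7.99) elsewhere. The ZT16-only share was then 28.0% (26 to 30.2) and 7.13% (6.92 to 7.35), as weak ZT4 partners are left out while the whole ZT16 list is kept. ZT4-only peaks of the arm were longer than those elsewhere, with medians of 116 and 51.0 bp, and 6.80% of them exceeded 500 bp against 0.238%.

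**Figure D4:**
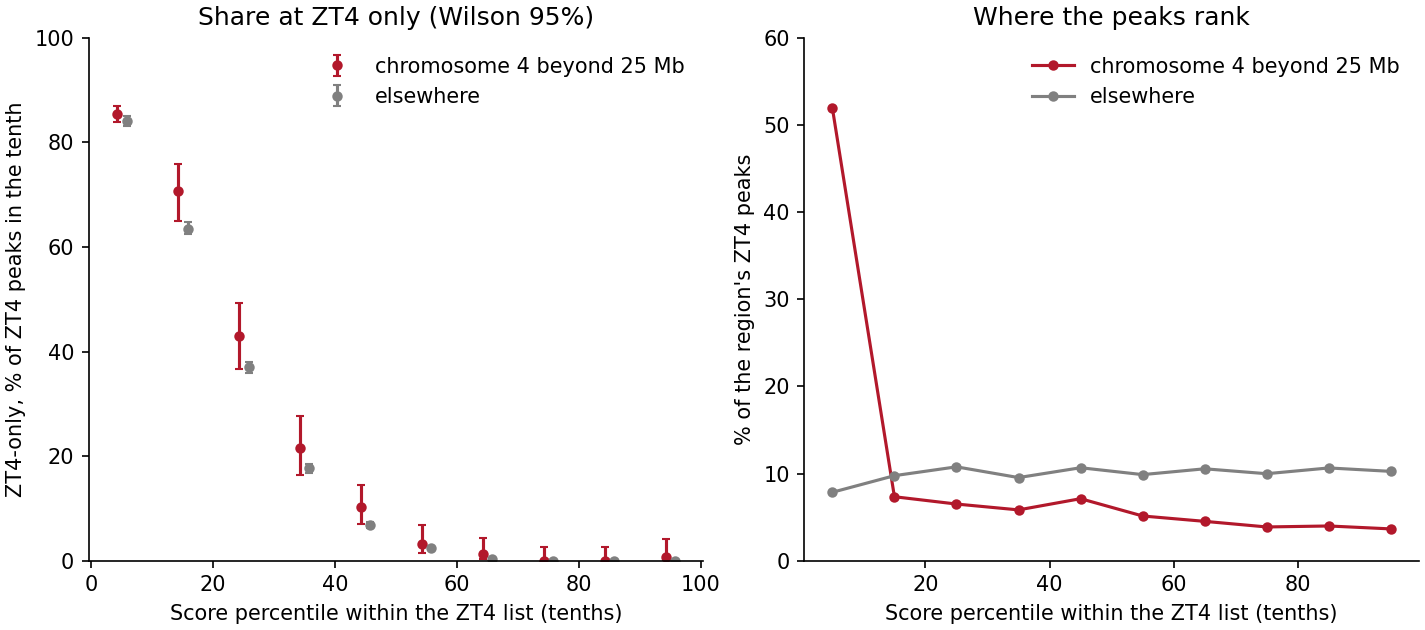
Left, percentage of ZT4 peaks that are ZT4-only in bands of 10 percentile points of the ZT4 score, for chromosome 4 beyond 25 Mb (red) and elsewhere (grey), with Wilson 95% intervals. Right, percentage of each region's ZT4 peaks that falls in each band; 51.9% of the arm's peaks lie in the lowest band, where both regions have a ZT4-only share near 85%.

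Peaks listed by night only were few and weaker still. Of the 462, 441 (95.5%) lay under percentile 10 of the ZT16 list, and their median score was 16. The 5 with the highest scores were on chromosome 4 from 66667281 to 66667361 (score 71, percentile 44.54), chromosome 22 from 5631281 to 5631330 (64), an unplaced scaffold (63), chromosome 16 from 9639806 to 9639858 (62) and chromosome 4 from 32199543 to 32199593 (60). None of the 462 lay above the middle of the ZT16 list (0% to 0.825%). Of the 14973 ZT4-only peaks, 1.34% lay above the middle of the ZT4 list. Over the whole lists night-only peaks were longer than day-only peaks, with a median of 128 bp against 52.0 bp. Of the night-only peaks 37.9% (33.6 to 42.4) exceeded 150 bp, against 11.5% (11.0 to 12.1). On the long arm of chromosome 4 the medians were close, at 128 and 116 bp, and 40.7% and 41.8% exceeded 150 bp. Elsewhere the medians were 128 and 51.0 bp. Day-only peaks under percentile 10 of the ZT4 list had a median of 70.0 bp. The median distance of night-only peaks to a shared site was 12658 bp, with 5608 bp on the long arm of chromosome 4 and 13715 bp elsewhere. For day-only peaks the order was the reverse, with 13174 bp on the arm and 8008 bp elsewhere.

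Night-only peaks also gathered on the long arm of chromosome 4. The arm held 113 of the 462 (24.5%, 20.8 to 28.6) and 2.97% of shared ZT16 peaks, and 6.42% of its ZT16 peaks had no partner at ZT4 against 0.645% elsewhere. Under percentile 10 of the ZT16 list the share was 20.4% (17.2 to 24) on the arm and 6.40% (5.76 to 7.09) elsewhere. Night-only peaks had a median percentile of 0.754, and this class was not split further by score, so ranks may differ within it. The windows with most of them were 53 to 54 Mb (22 of 58 ZT16 peaks), 66 to 67 Mb (10 of 39) and 48 to 49 Mb (8 of 29) of chromosome 4, then chromosome 17 between 31 and 32 Mb (7 of 46) and chromosome 7 between 0 and 1 Mb (6 of 24). In 183 of the 260 windows that held a night-only peak there was a single one.

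The window between 53 and 54 Mb held both a long day-only run and a night-only stretch. On chromosome 4 from 53794001 to 53898281, 104281 bp in all, 20 of 30 ZT16 peaks were night-only, and none of the 10 ZT4 peaks in it was day-only. The 20 peaks had scores of 14 to 45 and lengths of 56 to 898 bp, and the longest ran from 53863611 to 53864508. The run of 34 day-only peaks described above ends at 53732574, before this stretch begins. Of the 20 night-only peaks 17 were listed again in 20 M fish at ZT16, and none at 20 M ZT4 or in either 12 M list. In the whole stretch the 20 M ZT16 list, the longest of the series, had 52 peaks. The 20 M ZT4 list had 3 there, the 12 M ZT16 list 1 and the 12 M ZT4 list 0. With so few peaks in the stretch, those lists left little room for a match. The stretch holds the unannotated transcript XLOC_053635, from 53829004 to 53831435, which is among the transcripts with diurnal expression at 4 M. With 3 kb on each side it had 5 ZT16 peaks, 2 of them night-only, and 3 ZT4 peaks.

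Most day-only sites came back in the night list of old fish. The 20 M ZT16 list, the longest of the series with 87948 peaks, held 82.1% (81.4 to 82.7) of the ZT4-only peaks and 99.8% of the shared ZT4 peaks. The other older lists held few of them, 97 peaks (0.648%) at 20 M ZT4, 9 at 12 M ZT16 and none at 12 M ZT4. These lists held fewer of the shared ZT4 peaks as well, 33.8%, 15.4% and 0.0488% (27 peaks). Off the arm of chromosome 4 the share in the 20 M ZT16 list was 89.3% (88.8 to 89.9), and on the arm it was 33.6% (31.5 to 35.7). The regions differed on both sides of percentile 10. Under percentile 10 it was 20.9% (19.0 to 23.0) on the arm and 69.1% (67.7 to 70.4) elsewhere, and above it 88.5% (84.9 to 91.4) and 99.7% (99.6 to 99.8). The arm's ZT4-only peaks had a median score of 22 against 64 elsewhere, so ranks differ within these classes too. In the finer classes the share was 15.9% on the arm and 28.2% elsewhere at scores of 10 to 19, 20.1% and 44.3% at 20 to 29, and 34.6% and 95.3% at 30 to 55. Night-only peaks went the other way, with 54.9% (45.7 to 63.7) of those on the arm and 36.4% (31.5 to 41.6) of those elsewhere in the 20 M ZT16 list. Most of the weak day-only peaks of the arm were thus missing from the 20 M night list too.

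At the sites that could be compared, the difference in rank between day and night at 4 M had no close counterpart in old fish. At 18278 sites that were 1-to-1 at 4 M and again at 20 M, the rank differences at the 2 ages had a Spearman's rho of -0.095 and a Pearson's r of -0.098. All of these sites are in the short 20 M ZT4 list of 19177 peaks. That list held 95.5% of the shared ZT4 peaks above percentile 90 and 13.2% of those between 40 and 50. Weaker sites are thus mostly left out. At 54461 sites found in both 4 M lists and at 20 M ZT16, the 20 M night scores had a rho of 0.89 with the 4 M day scores and of 0.85 with the 4 M night scores. The 20 M ZT4 scores stood apart from all the others. At sites in all 4 lists they had a rho of 0.53 with 4 M ZT4, 0.55 with 4 M ZT16 and 0.46 with 20 M ZT16, against 0.87 between the 4 M lists. All values are descriptions across sites. Of the sites that ranked at least 25 points higher at ZT4, 18.3% (17.5 to 19.2) were in the 20 M ZT4 list, and of those that ranked at least 25 points higher at ZT16, 14.7% (12.3 to 17.5), against 36.6% of the other 1-to-1 sites. A site that shifts by 25 points cannot stand at the top of both lists, where peaks were mostly in the 20 M ZT4 list. This gap thus follows in part from the selection, and no comparison at equal rank was made.

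H3K9me3 was then placed at the loci that the study lists as diurnally expressed at 4 M, 140 annotated and 133 unannotated, each taken with 3 kb on either side. The list was drawn up from RNA of fish of this study and is used here for positions and names alone. Of the annotated loci 77 had a peak at both times, 10 at ZT4 only, none at ZT16 only and 53 at neither. The locus anxa1b,anxa1c is among the 10, although 1 of its ZT4 peaks has a ZT16 partner that falls outside the 3 kb. Of the 230 ZT4 peaks there, 36 (15.7%, 11.5 to 20.9) were ZT4-only, against 21.3% of the whole list and 19.5% off the arm of chromosome 4. No peak among the 193 at ZT16 was ZT16-only, against 0.827% of that list. Of the 194 1-to-1 sites 29 (14.9%) ranked at least 25 points higher at ZT4 and 2 at ZT16 (1.03%), close to the 14.3% and 1.29% of all sites. With percentiles among the sites the numbers were 14 and 14. Unannotated loci had 47 ZT4-only among 247 ZT4 peaks (19.0%, 14.6 to 24.4). The 26 of them on the arm of chromosome 4 had 11 among 21, and the 107 elsewhere 36 among 226 (15.9%, 11.7 to 21.3). Of their 199 1-to-1 sites 28 (14.1%) ranked at least 25 points higher at ZT4 and 2 (1.01%) at ZT16, or 6 and 8 with percentiles among the sites. Among the 205 ZT16 peaks of the unannotated loci 4 were night-only, of which 2 were at XLOC_053635, in the stretch chosen after its values were seen. On the arm they were 2 of 12 ZT16 peaks, beside 6.42% of all ZT16 peaks there. Elsewhere they were 2 of 193, beside 0.645%.

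The clock loci, which here take in output factors too, carried between 0 and 10 ZT4 peaks each. Of 15 clock loci 12 had a peak at ZT4, and 9 of their 43 ZT4 peaks (20.9%) were ZT4-only, beside 21.3% of the list. None of their 34 ZT16 peaks was night-only, beside 0.827% of that list, a share too low for their absence to tell. Of their 34 1-to-1 sites 7 ranked at least 25 points higher at ZT4 and none at ZT16, beside 14.3% and 1.29% of all sites. With percentiles among the sites the numbers were 5 and 3, beside 5.88% and 5.70%, and the median difference was 3.03 points. Percentiles at the loci below are those of the whole lists, which lean toward day, and differences called among the sites use the 1-to-1 sites alone. The plot of clock loci gives every peak.

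**Figure D5:**
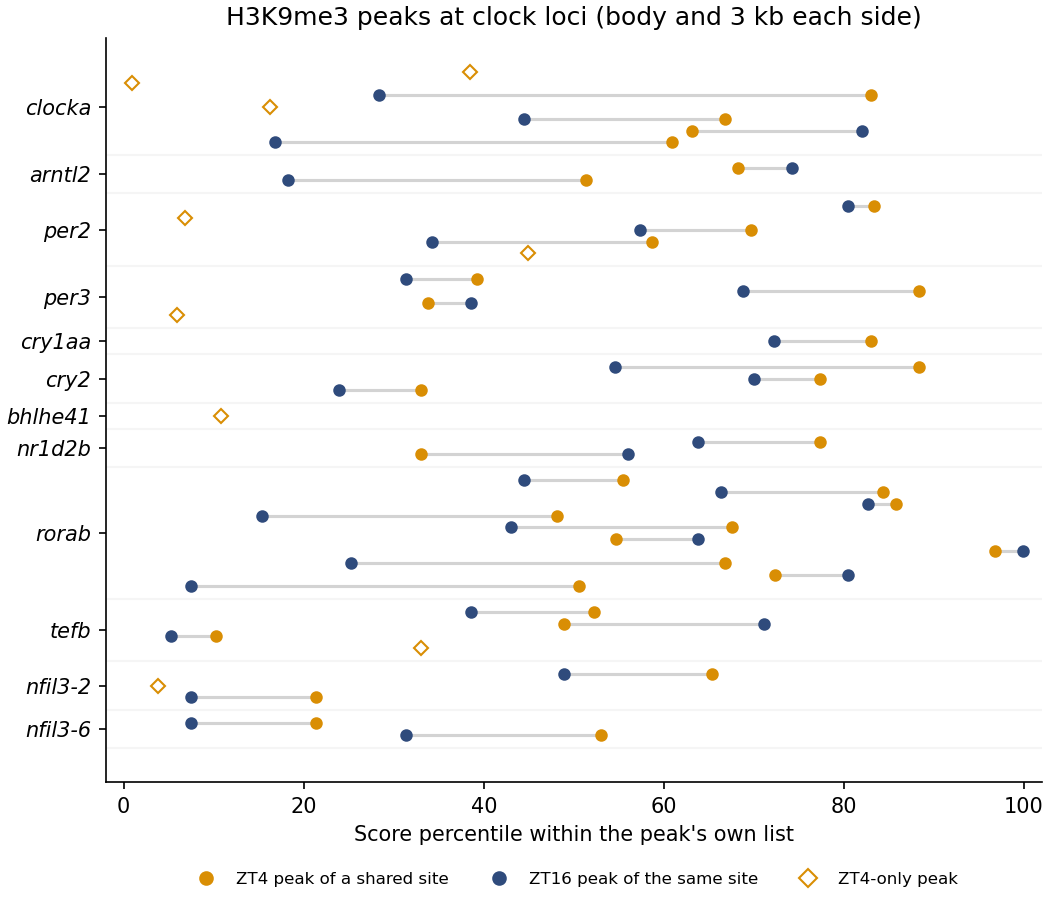
Score percentile of each H3K9me3 peak at the clock loci, one peak per line in order of position. Filled points joined by a grey line are the ZT4 (orange) and ZT16 (blue) peaks of a shared site, and open diamonds are the 9 ZT4-only peaks; bhlhe40, per1b and nr1d1 had no peak and are not drawn.

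The activator clocka, which encodes one partner of the CLOCK and BMAL1 dimer, had the most ZT4-only peaks of all annotated loci. The locus lies on chromosome 20 from 22168397 to 22281902. At 113506 bp it is long, against a median of 16426 bp for annotated loci, and a longer locus has more room for peaks. All 7 of its ZT4 peaks fell in the lower-numbered part of the locus. Those from 22171720 to 22171775, from 22193371 to 22193469 and from 22213264 to 22213312 had no partner at ZT16, and stood at percentiles 38.5, 0.9 and 16.3. In the bands of 10 points that hold these percentiles, 17.8%, 84.5% and 63.8% of all ZT4 peaks were ZT4-only. The site at 22199072 stood at percentile 83.0 by day and 28.4 by night. The site at 22223313 stood at 60.9 and 16.8, and that at 22219619 at 66.8 and 44.5. The site at 22223026 went the other way, at 63.1 by day and 82.0 by night. Among the sites these 4 differed by 50.7, 34.4, 13.9 and -28.7 points in the order given. The last is the direct neighbour of the site at 22223313, so adjacent sites of the same gene shifted in opposite directions. The paralogue of BMAL1, arntl2 on chromosome 18, had 2 sites, one inside the locus at percentiles 68.3 and 74.3 and one past its upper end at 51.4 and 18.2 (-14.4 and 21.1 points among the sites).

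Among the repressors, per2 on chromosome 2 had 5 ZT4 peaks and 3 ZT16 peaks. One day-only peak lay outside, below the lower end of the locus, from 48453876 to 48453922 at percentile 6.8. The other lay inside, from 48514715 to 48514770 at percentile 44.9. The 3 shared sites differed by 2.9, 12.4 and 24.4 points, or by -1.4, 4.6 and 13.9 among the sites. The gene per3 had 3 shared sites, which differed by 7.9, 19.5 and -4.8 points (-6.6, 16.6 and -19.8 among the sites), and a day-only peak past its upper end at percentile 5.9. At cry2 3 sites were shared, and the one below the lower end of the locus stood at percentile 88.3 by day and 54.6 by night, 31.0 points apart among the sites. At cry1aa 1 site stood at 83.0 and 72.2, or 6.4 points apart among the sites. The repressor bhlhe41, a DEC-type factor, had 1 peak, which was day-only at percentile 10.8, and per1b and bhlhe40 had none.

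In the second loop, where ROR factors switch on and REV-ERB factors switch off the BMAL1 gene, rorab on chromosome 7 had 10 ZT4 peaks, all with 1 partner at ZT16. The strongest, from 29406053 to 29406164, stood at percentile 96.8 by day and 99.9 by night. At 3 sites the day percentile was at least 25 points higher, with 50.6 against 7.5 at 29440941, 66.8 against 25.3 at 29414688, and 48.1 against 15.4 at 29372867. Among the sites these 3 differed by 30.9, 33.2 and 19.9 points. At 3 others the night percentile was the higher one, by at most 9.2 points, and among the sites it was the higher one at 5, by at most 21.0 points. The REV-ERB gene nr1d2b had 2 sites that differed by 13.4 and -23.0 points (7.6 and -38.1 among the sites), and nr1d1 had none. The output factor tefb had 3 shared sites, at 13.6, -22.2 and 5.0 points (1.5, -35.4 and -2.5 among the sites), and 1 day-only peak at percentile 33.0. Of the nfil3 genes, nfil3-2 had 1 day-only peak at percentile 3.8, and it shared with its neighbour nfil3-6 a site between them at percentiles 21.4 and 7.5, or 0.8 points apart among the sites.

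The 52 other loci grouped by function had 65 ZT4 peaks, of which 12 (18.5%) were ZT4-only. None of their 53 ZT16 peaks was night-only, beside 0.827% of that list, a share too low for their absence to tell. Among 7 heat shock and chaperone loci hspa4a, a co-chaperone of HSP70, had 2 day-only peaks of 5, at percentiles 2.5 and 25.5. Its 3 shared sites differed by -10.4, -7.8 and 6.3 points (-22.3, -22.0 and -3.8 among the sites). The single peak of the small heat shock gene hspb6 was day-only. The cytosolic HSP90 locus hsp90aa1.1,hsp90aa1.2 had a site at percentile 73.0 by day and 21.0 by night, 45.4 points apart among the sites. Of 10 keratin and junction loci, the desmosomal plakophilin pkp3a had a day-only peak at percentile 55.5, the periplakin gene ppl one at 12.4, and krt17 one at 23.4. Across this group 3 of 7 ZT4 peaks were ZT4-only, an interval of 15.8% to 75%, beside 21.3% of all ZT4 peaks.

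Of 10 muscle and calcium loci, the troponin genes tnni2a.1 and tnnc1b had a day-only peak each, at percentiles 35.4 and 5.1. The locus of the calcium pump gene atp2a2a, which spans ift81 too, had sites at 39.3 by day against 8.2 by night and at 83.0 against 56.0. The myosin-binding protein gene mybpc1 had one at 51.4 against 21.0. Among the sites these 3 differed by 16.8, 22.8 and 18.2 points, and none of the 13 sites of the group passed 25 points. Of the 13, 5 ranked higher at ZT4 among the sites, and the median difference of the group was -1.86 points. Of 9 metabolic loci, gldc, a subunit of the glycine cleavage system, had 1 day-only peak of 7, at percentile 13.4. A site of gldc stood at 84.3 by day against 53.2 by night (27.3 points among the sites). Its site at 65537758 went the other way, at 37.7 by day against 53.2 by night (-30.3 points among the sites). The ferrochelatase gene fech, the last enzyme of heme synthesis, had a day-only peak at percentile 4.5. Its shared site stood at 51.4 by day against 61.3 by night (-22.5 points among the sites). The gene hmgcs1, of cholesterol synthesis, had a site at 44.1 by day against 16.8 by night (13.7 points among the sites). Of 9 neuronal loci only slc17a7a, a vesicular glutamate transporter, had a day-only peak, at percentile 7.9. Histone loci had 3 peaks and photoreceptor loci 1, all shared. The median difference was -3.01 points at the histone sites and 22.8 at the photoreceptor site, or -14.36 and 9.85 among the sites. Besides clocka, hspa4a and per2, the LIM-domain cofactor gene ldb2a had 2 day-only peaks of 8, and 27 further annotated loci had 1 each. The 6 shared sites of ldb2a differed by -22.2, 18.7, -9.4, -1.6, -3.9 and -27.9 points among the sites.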

How the data were processed

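H3K9me3 ChIP-seq of 4 M zebrafish brain was compared between ZT4 and ZT16. The authors aligned single-end reads of 50 bp with Bowtie2, the genome being GRCz10, and called peaks by MACS2 (version 2.2.1 in the submitters' processing notes) on the 3 libraries of a group at an FDR given as 0.01. Each deposited peak carries a score, a whole number of at least 10 with no named scale, used as a rank within its list apart from score classes, stricter scores and correlations. The labels name the Duke centre or Genewiz for sequencing, the methods Duke alone, and the centre of each library is not given in the sources used here. No control for the calls is named.

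Peaks were compared with scipy 1.17.1, pandas 2.3.3 and numpy 2.4.6 under Python 3.11.15, and plotted with matplotlib 3.10.9. Positions count from 1. A site was 1-to-1 when 1 peak of each list overlapped only the other. Distances run from edge to edge, and windows take a peak by its start. Intervals are Wilson 95% intervals over peaks. The overlap code was checked on 5000 simulated intervals with 1500 planted overlaps and against bedtools 2.31.1. Alternatives were stricter scores, 50% reciprocal overlap, equal lists, fewer chromosomes, merged peaks, other percentiles, windows and flanks. Named peaks, windows and loci are those with the highest scores, lengths, differences or counts, all clock loci, and up to 4 loci of each other group. One locus named by this rule is not reported here. The members and gene groups were chosen with earlier results of these data known. The stretch on chromosome 4 with 20 night-only peaks and the runs of peaks were chosen after their values were seen. Columns of expression in the study's locus lists were not used.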

Additional observations from a re-analysis of the deposited data

How the results depend on the processing

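Of 83 values under 13 alternative settings, 45 kept to the value in the report, that is, to 1.5 times a count or to the 95% interval of the other values. No setting gave a replicate error, and no paired analysis was possible because each list pools its libraries.

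With the ZT4 list cut to the size of the ZT16 list, 4388 peaks were ZT4-only and 4351 ZT16-only. The median ZT4-only length was 54 bp, with 56.0% within 10 kb of a shared peak, 3.69% on chromosome 4 beyond 25 Mb and 1.07% in the 5 richest windows. The number of sites at least 25 points higher was then 3133 at ZT4 and 3349 at ZT16, with a median absolute difference of 9.13 points. Percentiles among the 1-to-1 sites gave 3243, 3142 and 8.41 points. Ties at the lowest rank gave 10.6 points.

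A score of at least 20 left 196 ZT16-only peaks, and at least 30 left 84. The median ZT4-only length was 51 bp under both and without chromosome 4. The share within 10 kb was 56.1% and 56.8%, the share on chromosome 4 beyond 25 Mb 9.66% and 6.11%, and the share in 5 windows 1.95% and 1.04%. The lower of these scores moved the median absolute difference to 10.2 points. Reciprocal overlap of 50% gave 1539 ZT16-only peaks, 53 bp, 53.5% and 2.96%. Without chromosome 4 the values were 56.5%, 1.11% in 5 windows and 10.1 points, and chromosomes 1 to 25 gave 10.6 points. Merging within 1 kb gave 49.3% within 10 kb and 9.82% on chromosome 4 beyond 25 Mb. Windows of 500 kb and 2 Mb gave 1.92% and 4.21%. With no flank, 99 of the diurnally expressed loci had a peak in both lists, against 151 with 3 kb. The share of ZT4-only peaks at those loci stayed between 15.9% and 19.8%. Without chromosome 4, its share has no value.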
